A study of Mus musculus with 9 samples.

Results

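In mouse embryos at E18.5, dorsal root ganglia (DRG) were examined for 8 receptors of dopamine, serotonin and noradrenaline: Drd1, Drd2, Htr1a, Htr1b, Htr1d, Htr3a, Adra2a and Adra2c. They were taken by gene symbol from the 55247 genes of the count table, and each symbol had 1 row. RNA had been sequenced in 9 libraries, with 3 for each of 3 genotypes. For WT embryos the labels name no engineered allele. In Isl1Cre/+ embryos, 1 copy of Isl1 carried Cre, so that Cre follows the Isl1 gene, which is active in postmitotic sensory neurons. Isl1Cre/+::Meis2LoxP/LoxP embryos, called mutant here, carried the same Cre allele and, on both copies of Meis2, LoxP sites around the first exon that encodes the homeodomain. Mutant and Isl1Cre/+ embryos therefore share the loss of 1 intact Isl1 copy, and their genotypes differ by the floxed Meis2 only. The question put to the receptors was whether their mRNA differs between the genotypes.

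Monoamines reach the somatosensory system mainly through descending fibres from the brainstem and through sympathetic nerves, platelets and mast cells in the periphery. Most of their receptors are G protein-coupled. Receptors coupled to Gi/o proteins, such as Drd2, Htr1a, Htr1b, Htr1d, Adra2a and Adra2c, lower cyclic AMP, open G protein-gated potassium channels and reduce calcium entry at the central terminals of sensory neurons, which dampens transmitter release. Drd1 couples to Gs and Golf proteins and raises cyclic AMP. Htr3a is different in kind: it is a subunit of a serotonin-gated cation channel that depolarizes the neuron directly. Htr1b and Htr1d are the receptors at which the triptans used against migraine act.

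The difference between the receptor classes can be read in the coding sequences. Near the inner end of the third membrane helix, many G protein-coupled receptors hold aspartate, arginine and tyrosine in a row, a triplet involved in switching the receptor on. Exactly 1 such run was found in the reading frame of each of the 7 G protein-coupled receptors, and 0 in that of Htr3a. The stretches of 30 bases that hold it are given here to show how alike these genes are at that site, with the 3 codons of the triplet in capitals (mm10, coding strand, 5′ to 3′).
Drd1: gtgatcagcgtgGACAGGTATtgggctatc
Drd2: gccatcagcatcGACAGGTACacagctgtg
Htr1a: gccatcgcgctaGACAGGTACtgggcaatc
Htr1b: gtcatcgccctgGACCGCTACtgggccatc
Htr1d: gtcattgctctgGACAGATACtgggccatc
Adra2a: gccatcagccttGACCGCTACtggtccatc
Adra2c: gccattagtctgGACCGCTACtggtcggtg
The stretches lie at chr13:54053822-54053851 (-) for Drd1, chr13:105444638-105444667 (+) for Htr1a, chr9:81632112-81632141 (-) for Htr1b and chr4:136442843-136442872 (+) for Htr1d. Those of Adra2a and Adra2c are at chr19:54046635-54046664 (+) and chr5:35280315-35280344 (+). That of Drd2 spans an intron, between chr9:49399829 and chr9:49400756 (+).

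Such likeness could let a read fit more than 1 gene. The longest stretch that any of the 8 shared exactly with another of the 28 dopamine, serotonin and adrenergic receptor genes was 26 bases, between Adra2a and Adra2c.
Adra2a and Adra2c: gagtacaacctgaagcgcacgccgcg
This stretch lies at chr19:54046677-54046702 (+) in Adra2a and at chr5:35280357-35280382 (+) in Adra2c, in the coding part of both, and was shorter than the reads of 84 bases. In the annotation, 852 bases (18%) of the Htr1b exons lie opposite an antisense gene, D430036J16Rik. The strand setting of the counting is not given in the sources used here, so reads of Htr1b and of that gene cannot be told apart there. Htr3a is overlapped by the antisense gene Gm32335 without any shared exonic base, and the other 6 genes are overlapped by none.

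The libraries held 23854607 to 29103444 counts. Meis2 had 2746 to 2919 counts in WT, 2537 to 2857 in Isl1Cre/+ and 1004 to 1084 in mutant libraries, and the mutant libraries lay below all others. Isl1 was 0.716-fold in Isl1Cre/+ and 0.717-fold in mutant libraries relative to WT (both meeting the study's criterion, given below). All 9 listed sensory neuron markers passed the filter, and they summed to 4680 to 7050 normalized CPM (counts relative to the scaled library size). Fibroblast markers summed to 1820 to 3550 CPM. Against the other libraries, WT replicate 1 and mutant replicate 2 stood apart, with a median rank correlation of 0.981 and 0.979 where the other 7 had 0.991 to 0.995. Mutant replicate 2 had the highest sum of skeletal muscle markers, 1740 CPM against 53.8 to 747 in the others, and of erythroid markers, 3940 CPM against 341 to 2200. WT replicate 1 had the highest sum of sensory neuron markers. Spinal interneuron markers were low, with 0 of 8 past the filter, but their sums set the genotypes apart, at 4.08 to 4.79 CPM in WT, 0.935 to 3.47 in mutant and 0.176 to 0.569 in Isl1Cre/+ libraries. Their part in the receptor levels was not tested.

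In these ganglia the serotonin-gated channel gene Htr3a was the most abundant of the 8 per length of transcript, and Drd2 the least, with 60.8 times between them. Levels were compared between genes as CPM, scaled by TMM over all 9 libraries, per kb of annotated exon. Htr3a averaged 16.6 CPM per kb (range over libraries 14.1 to 19.3), Htr1b 11.1 (8.21 to 13.2) and Htr1d 5.34 (4.8 to 5.73). The adrenergic receptors followed, Adra2a with 3.08 CPM per kb (2.24 to 4.07) and Adra2c with 2.45 (2.16 to 2.97). Drd1 had 0.964 (0.619 to 1.17), Htr1a 0.642 (0.443 to 0.872) and Drd2 0.272 (0.213 to 0.341). The genotype means held this order in each of the 3 genotypes. Between neighbours, the ranges of Adra2a and Adra2c overlapped, and Adra2a was above Adra2c in 8 of 9 libraries, mutant replicate 1 being the exception. The ranges of Drd1 and Htr1a overlapped as well, although Drd1 was above Htr1a in 9 of 9 libraries. All other neighbours were apart. Among the 13067 tested genes with an annotated length, 77.2% lay below Htr3a, 66.5% below Htr1b, 43.4% below Htr1d, 5.38% below Drd1 and 2.38% below Htr1a.

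**Figure D1:**
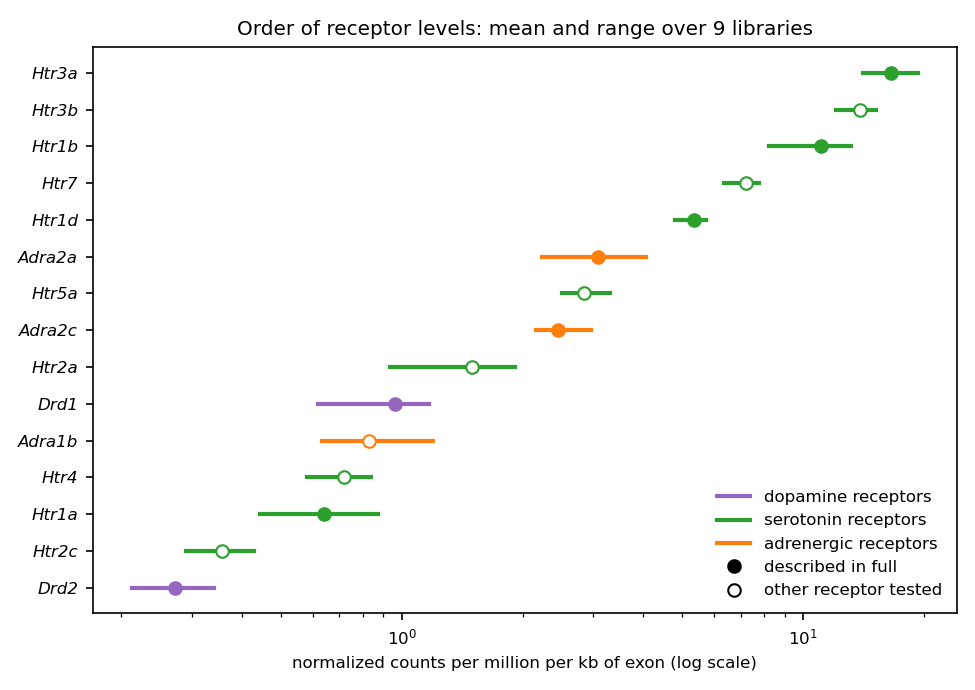
Mean level of receptor genes (points) with the lowest and highest of the 9 libraries (lines), in normalized CPM per kb of exon on a log axis, coloured by receptor family. Filled points are the 8 genes described here and open points the other receptors past the filter; Htr3a, at 16.6, is at the top and Drd2, at 0.272, at the bottom.

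Htr3a (chr9:48899213-48911099, minus strand, 9 exon blocks) had counts of 1013, 1002 and 1036 in the WT libraries, 867, 923 and 1147 in those of Isl1Cre/+, and 840, 941 and 781 in the mutant libraries. In CPM the WT libraries lay between 35.3 and 37.9, those of Isl1Cre/+ on both sides of that range (29.4, 32.8 and 40.3), and the mutant libraries at 31.4 and 31.9, below it, and 35.6, inside it. The mean level was 36.3 ± 1.41 CPM in WT, 34.2 ± 5.57 in Isl1Cre/+ and 33 ± 2.28 in mutant libraries (SD, n = 3). The variance within genotypes was 10.6 times that of counting alone (chi-square per degree of freedom), so that depth did not limit its precision.

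Of the Gi/o-coupled serotonin receptors, Htr1b (chr9:81628291-81633828, minus strand) had 1035, 1435 and 1689 counts in the WT libraries, 1446, 1488 and 1776 in those of Isl1Cre/+, and 1562, 1308 and 1323 in the mutant libraries. WT replicate 1 was the lowest of all 9, and the 3 genotypes overlapped. Htr1b averaged 49.2 ± 9.88 CPM in WT, 54.7 ± 6.87 in Isl1Cre/+ and 54 ± 4.48 in mutant libraries (SD, n = 3), and its variance within genotypes was 29.7 times that of counting, the highest among the 8. Htr1d (chr4:136423524-136444398, plus strand) had 423, 519 and 521 counts in the WT libraries, 508, 516 and 467 in those of Isl1Cre/+, and 438, 406 and 442 in the mutant libraries. It was the steadiest of the 7 tested genes, with 1.2 times between its lowest and its highest library in CPM. Its means were 17.4 ± 1.34 CPM in WT, 17.3 ± 0.984 in Isl1Cre/+ and 16.6 ± 1.36 in mutant libraries (SD, n = 3).

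Htr1a (chr13:105443639-105448122, plus strand, 1 exon) had 53, 111 and 89 counts in the WT libraries, 70, 74 and 78 in those of Isl1Cre/+, and 92, 74 and 72 in the mutant libraries. The WT group held both the lowest and the highest library, replicates 1 and 2. In CPM, which allows for the depth of each library, the Isl1Cre/+ libraries were at 2.37, 2.63 and 2.74 and the mutant libraries at 3.44, 2.8 and 2.94, so these groups did not overlap although the raw counts did. The WT mean of 2.99 ± 0.965 CPM (SD, n = 3) lay between those of Isl1Cre/+, 2.58 ± 0.189, and mutant, 3.06 ± 0.338. With counts of this size, counting alone gives a coefficient of variation of 11.2%.

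The adrenergic receptors Adra2a and Adra2c answer noradrenaline and are the targets of clonidine. Adra2a (chr19:54044151-54048982, plus strand) had 386, 377 and 435 counts in the WT libraries, 500, 393 and 437 in those of Isl1Cre/+, and 290, 520 and 357 in the mutant libraries. The mutant group spanned the whole range of the series, from the lowest library, mutant replicate 1, to the highest, mutant replicate 2. Its mutant mean of 15 ± 4.43 CPM (SD, n = 3) had a wider spread than that of WT, 14.3 ± 0.898, or of Isl1Cre/+, 15.4 ± 1.48. The marker sums of fibroblasts, of vascular smooth muscle and pericytes and of macrophages were likewise highest of the 9 in mutant replicate 2 (3550, 265 and 112 CPM) and lowest in mutant replicate 1 (1820, 185 and 43.4 CPM). In Isl1Cre/+ replicate 1, the second highest for Adra2a, the fibroblast and vascular sums were also second highest (3170 and 256 CPM). Muscle and erythroid sums were highest in mutant replicate 2 too, and the part of these cells in the Adra2a level was not tested. Adra2c (chr5:35278319-35281763, plus strand, 1 exon) had 273, 215 and 268 counts in the WT libraries, 243, 214 and 261 in those of Isl1Cre/+, and 238, 199 and 182 in the mutant libraries. All 3 groups overlapped, at 9.02 ± 1.34, 8.33 ± 0.781 and 7.95 ± 0.823 CPM (SD, n = 3).

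Of the dopamine receptors, Drd1 (chr13:54051183-54055705, minus strand) had 60, 113 and 103 counts in the WT libraries, 114, 119 and 113 in those of Isl1Cre/+, and 89, 79 and 81 in the mutant libraries. The mutant libraries lay below every Isl1Cre/+ library, in counts and in CPM, whereas WT replicate 1 was below all mutant libraries and the other WT libraries above them. Drd1 averaged 3.26 ± 0.904 CPM in WT, 4.02 ± 0.191 in Isl1Cre/+ and 3.21 ± 0.191 in mutant libraries (SD, n = 3). Drd2 (chr9:49340627-49408177, plus strand) had 19, 17 and 18 counts in the WT libraries, 16, 20 and 22 in those of Isl1Cre/+, and 15, 23 and 21 in the mutant libraries. It was present in every library but below the minimum of 100 counts in at least 1 library, and so was not among the genes tested. Its variance within genotypes was 0.609 times that of counting alone. At this depth counting gives a coefficient of variation of 22.9%.

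**Figure D2:**
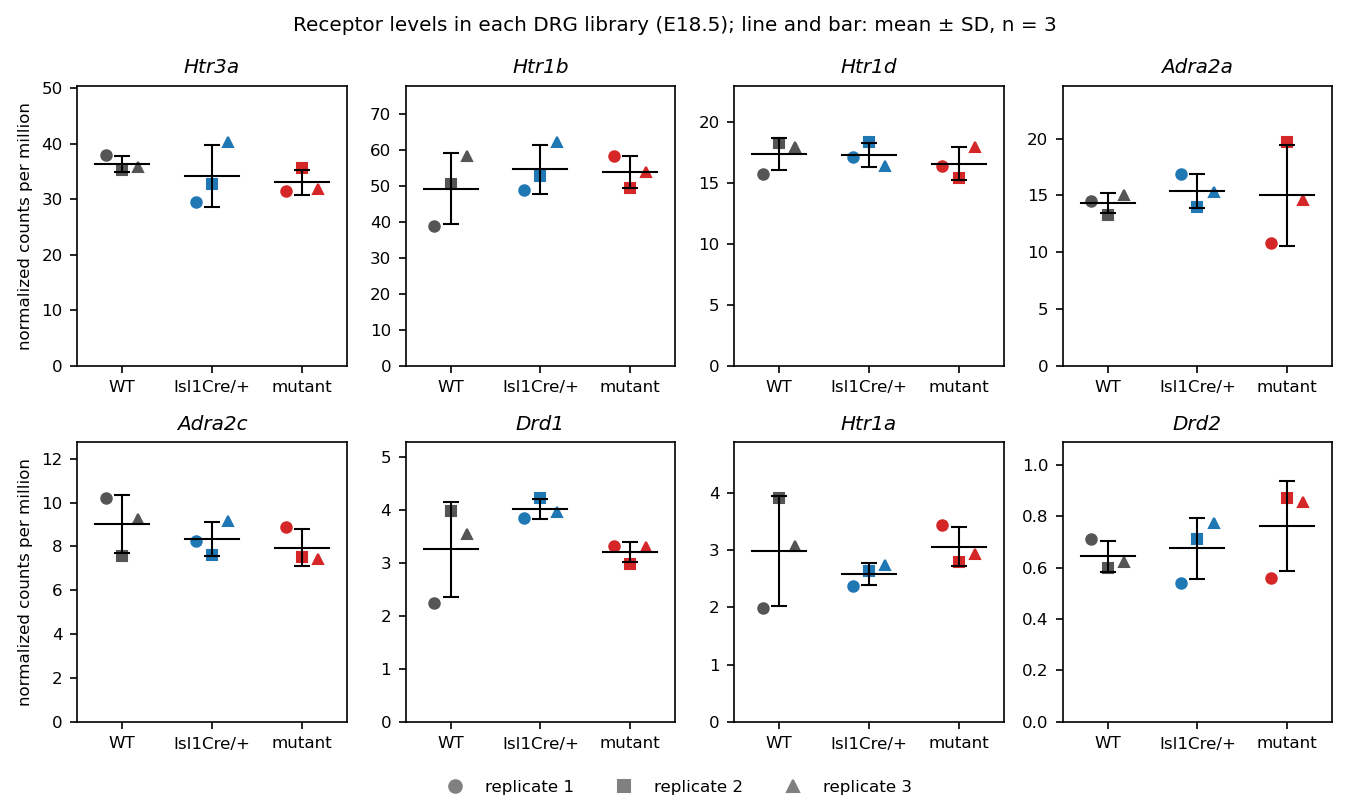
Level of each receptor gene in the 9 libraries in normalized CPM (each panel has its own axis from 0), by genotype, with marker shape for the replicate and lines and bars for mean and SD (n = 3). Drd1 in the mutant libraries lies below the Isl1Cre/+ libraries, Adra2a spreads widest in the mutant, and WT replicate 1 is lowest for Drd1, Htr1a and Htr1b.

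None of the 7 tested receptor genes met the study's criterion (fold change of at least 1.2 and unadjusted p under 0.05) in any comparison of genotypes, by the two-sided quasi-likelihood test of edgeR, and 0 of 7 had an unadjusted p under 0.05. Over all tested genes, 0.371% had such a p between mutant and WT, 2.73% between mutant and Isl1Cre/+ and 1.79% between Isl1Cre/+ and WT. By DESeq2 0 of 7 met the criterion in each comparison, where 0.28%, 1.79% and 1.51% of all tested genes did in the same order. By limma voom the count was 0 of 7 between mutant and WT (0.303% of all tested genes) and between Isl1Cre/+ and WT (1.06%), and 1 of 7 between mutant and Isl1Cre/+, described below. The Benjamini-Hochberg adjusted p, over all 13200 genes tested, was 1 for each of the 7 in each of the 3 comparisons. In this bulk tissue, fewer cells that express a gene and less RNA per cell cannot be told apart. The study describes its replicates as biological, while the labels do not tie the libraries to animals, so the p-values measure the spread between these libraries. The comparisons also share libraries and are not independent of each other.

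The genotypes of mutant and Isl1Cre/+ embryos differ by the floxed Meis2 only, while their libraries also differed in the sums of erythroid and spinal interneuron markers. Between these 2 genotypes, 0 of 7 receptor genes met the criterion, where 1.67% of all tested genes did. Drd1 was 0.798-fold in mutant libraries (log2 fold change -0.33 ± 0.151, SE; 95% confidence interval 0.624 to 1.02-fold; edgeR adjusted p = 1). This was the largest difference among the 7, and all 3 mutant libraries were below all 3 Isl1Cre/+ libraries. By limma voom, the tool of the study, Drd1 did pass the criterion, at a log2 fold change of -0.32, with an adjusted p of 0.999, where 1.17% of all tested genes passed it. Over the 13 alternatives run for Drd1 in this comparison, the adjusted p ranged from 0.867 to 1 and the log2 fold change from -0.36 to -0.27, and limma voom was the 1 alternative in which the criterion was met. Htr1a was 1.19-fold (log2 fold change 0.25 ± 0.184, SE; interval 0.879 to 1.6-fold; edgeR adjusted p = 1), with all 3 mutant libraries above all 3 Isl1Cre/+ libraries in CPM. Groups did not overlap for 2 of the 7 receptor genes, against 7.65% of all tested genes. An exact permutation test of 3 against 3 libraries can give no p below 0.1, so this separation alone could not pass 0.05.

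The other 5 receptor genes lay close to no difference in this comparison, with fold changes from 0.954 for Adra2c to 0.986 for Htr1b. Their 95% intervals were 0.832 to 1.17-fold for Htr1b, 0.826 to 1.11-fold for Htr1d, 0.794 to 1.17-fold for Htr3a, 0.783 to 1.16-fold for Adra2c and 0.701 to 1.35-fold for Adra2a. A fall of 1.2-fold lay inside all 5 intervals, and a rise of that size inside that of Adra2a alone. The median over the 7 was a log2 fold change of -0.05, where all tested genes had 0.0003. Beside these values, all 5 tested of 6 skeletal muscle markers and all 5 erythroid markers met the criterion as higher in mutant than in Isl1Cre/+ libraries. So did Acta2 and Myh11 of 5 vascular smooth muscle markers, Cpa3 of 2 tested mast cell markers and Acan of 3 tested cartilage markers, while the endothelial marker Kdr met it as lower. The muscle sums were 103 to 1740 against 53.8 to 126 CPM, the erythroid sums 1200 to 3940 against 341 to 975 CPM, and none of the sensory neuron markers met the criterion. Their part in the receptor levels was not tested.

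Between mutant and WT, again 0 of 7 receptor genes met the criterion, where 0.318% of all tested genes did. None of these 7 had groups that did not overlap, where 2.76% of all tested genes had. Htr3a was 0.907-fold in mutant libraries (interval 0.787 to 1.04-fold) and Adra2c 0.882-fold (interval 0.685 to 1.14-fold). The log2 fold change of Drd1 was -0.03 ± 0.25 (SE) and that of Htr1a 0.03 ± 0.277, with intervals of 0.655 to 1.47-fold and 0.652 to 1.6-fold that leave large differences in both directions possible. The direction of both genes changed with the library left out: their log2 fold changes were lowest without WT replicate 1 (-0.23 and -0.19) and highest without WT replicate 2 (0.14 and 0.27). Htr1b (1.1-fold, interval 0.855 to 1.41-fold) turned to a log2 fold change of -0.01 without WT replicate 1, and Adra2a (1.05-fold, interval 0.752 to 1.48-fold) to -0.15 without mutant replicate 2. Without both libraries, the count of receptor genes meeting the criterion was again 0. Htr1d was 0.955-fold (interval 0.795 to 1.15-fold).

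Between Isl1Cre/+ and WT, 0 of 7 met the criterion against 1.4% of all tested genes, and 0 of 7 had groups that did not overlap against 6.08%. The largest difference was that of Drd1, 1.24-fold in Isl1Cre/+ (interval 0.844 to 1.81-fold), with log2 fold changes from 0.08 (without WT replicate 1) to 0.48 (without WT replicate 2) when single libraries were left out. Htr1a was 0.866-fold (interval 0.556 to 1.35-fold), and Htr1b, Adra2a, Htr1d, Htr3a and Adra2c lay between 0.933 and 1.12-fold. Drd2, in a fit with no filter on low counts, had log2 fold changes of 0.26 ± 0.322 (mutant against WT), 0.15 ± 0.306 (mutant against Isl1Cre/+) and 0.09 ± 0.293 (Isl1Cre/+ against WT; SE), each smaller than its error. Beside these values, all 5 tested muscle markers and all 5 erythroid markers met the criterion as lower in Isl1Cre/+ than in WT libraries, with median log2 fold changes of -2.10 and -1.34, and 2 of 5 endothelial markers (Pecam1 and Kdr) met it as higher and the mast cell marker Cpa3 as lower. The muscle sums were 53.8 to 126 against 94 to 747 CPM and the erythroid sums 341 to 975 against 891 to 2120 CPM, so that both overlapped. Their part in the receptor levels, and in those of the monoamine genes given below, was not tested.

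**Figure D3:**
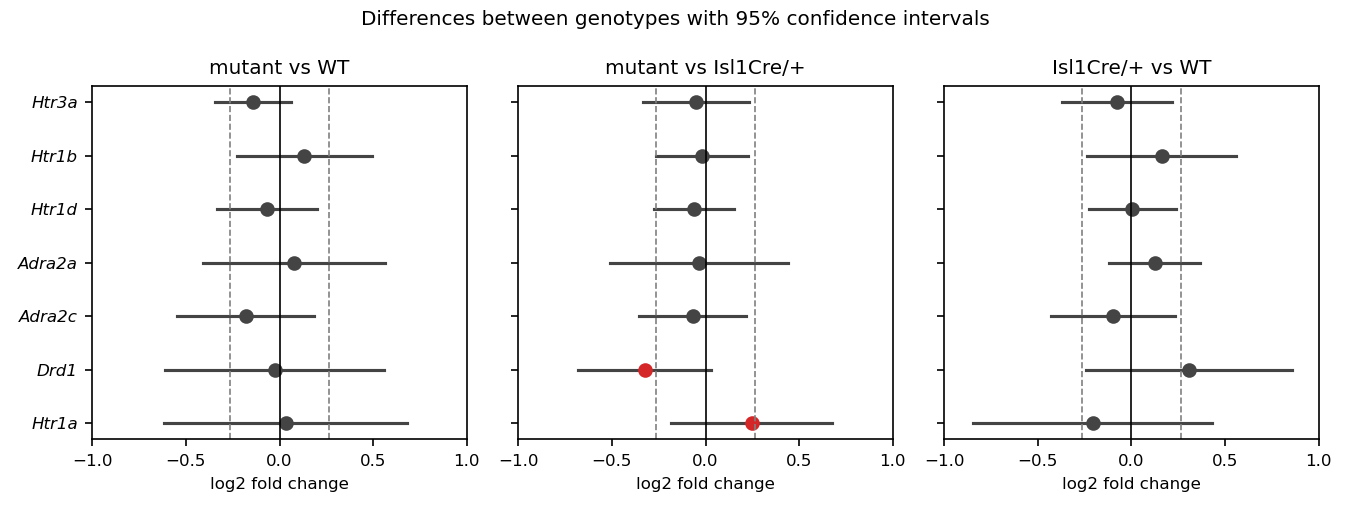
Log2 fold change (points) with 95% confidence interval (lines) of the 7 tested receptor genes in the 3 comparisons of genotypes. Dashed lines mark the 1.2-fold change of the criterion, every interval crosses 0, and the points in red, Drd1 and Htr1a between mutant and Isl1Cre/+, are those whose groups of 3 libraries did not overlap.

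Of 28 dopamine, serotonin and adrenergic receptor genes, 14 passed the filter, namely 1 of 5 dopamine, 10 of 14 serotonin and 3 of 9 adrenergic receptors, and 0 of 14 met the criterion in each comparison, where 0.318% (mutant against WT), 1.67% (mutant against Isl1Cre/+) and 1.4% (Isl1Cre/+ against WT) of all tested genes did. Htr3b, which joins Htr3a in the serotonin-gated channel, had 837 to 1046 counts and 13.9 CPM per kb (range 12.1 to 15.2), overlapping with Htr3a. Htr7, a receptor coupled to Gs proteins, followed Htr1b with 7.19 CPM per kb. Htr7 was 0.883-fold in mutant relative to WT libraries, with all mutant libraries lower (edgeR adjusted p = 1), without meeting the criterion. Groups that did not overlap, in either direction, were found for 2.76% of all tested genes. Htr5a had 339 to 499 counts, Htr2a 140 to 307, Htr2c 77 to 114, Htr4 76 to 116 and Adra1b 60 to 108. Htr2a was lowest in WT replicate 1, as were Drd1, Htr1a and Htr1b. At the other end, 10 of the 28 genes stayed under 25 counts in every library, and the beta receptor gene Adrb3, known from fat cells, had at most 2.

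Downstream of the receptors, 39 of 42 listed genes for G protein subunits, adenylyl cyclases, potassium channels, receptor kinases, arrestins and RGS proteins passed the filter, and 0 of 39 met the criterion in any comparison. Against the same shares of all tested genes, neither count is a result about these genes. All 5 Gi/o alpha subunit genes were tested, at 30.6 to 126 CPM per kb, above every receptor gene named here. Gnal, the alpha subunit of Golf through which Drd1 acts in the striatum, had 44.6 CPM per kb. Rgs4, which speeds the switching off of Gi/o proteins, had 328 CPM per kb, the highest among the 13 RGS genes. Of the 4 subunits of G protein-gated potassium channels, Kcnj3 alone passed the filter, with 653 to 913 counts, while Kcnj5, Kcnj6 and Kcnj9 had at most 19. Between mutant and WT libraries the log2 fold changes of the 13 RGS genes ran from -0.24 to 0.15 and those of the 9 adenylyl cyclases from -0.15 to 0.2.

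Of 16 listed genes that make, carry and break down the monoamines, 9 passed the filter. The criterion was met by 1 of 9 between mutant and WT (Th), by 1 of 9 between mutant and Isl1Cre/+ (Dbh) and by 2 of 9 between Isl1Cre/+ and WT (Dbh and Slc6a2), against the same shares of all tested genes, and all 3 are also on the list of sympathetic markers. Th, tyrosine hydroxylase, the rate-limiting enzyme of catecholamine synthesis, had 472, 514 and 477 counts in the WT libraries, 395, 434 and 500 in those of Isl1Cre/+, and 370, 367 and 353 in the mutant libraries. In CPM the mutant libraries (13.8 to 14.4) lay below all of WT (16.5 to 18.1) and overlapped with those of Isl1Cre/+ (13.4 to 17.6). Th met the criterion as lower in mutant than in WT, at 0.806-fold (interval 0.688 to 0.945-fold; edgeR adjusted p = 1). Without WT replicate 2 it no longer met the criterion, at a log2 fold change of -0.28. Relative to Isl1Cre/+, Th was 0.909-fold (interval 0.76 to 1.09-fold). Of the sympathetic marker list, 3 of 8 genes passed the filter. The list summed to 22.6 to 35.3 CPM in WT, 16.2 to 17.9 in Isl1Cre/+ and 15.4 to 23.5 in mutant libraries. Th itself made up much of these sums, at a mean of 17.4 CPM in WT, 15.5 in Isl1Cre/+ and 14.0 in mutant libraries. The sums are therefore no measure of sympathetic neurons apart from Th. The part of sympathetic neurons in the Th level was not tested.

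Dbh, which turns dopamine into noradrenaline, had 10, 138 and 42 counts in the WT libraries, 0, 10 and 0 in those of Isl1Cre/+, and 10, 13 and 48 in the mutant libraries. Slc6a2, the noradrenaline transporter, had 5, 166 and 35 counts in the WT libraries, 1, 8 and 1 in those of Isl1Cre/+, and 2, 7 and 58 in the mutant libraries. In both genes WT replicate 2 was far above the rest and Isl1Cre/+ was lowest as a group. That library alone took each of these genes past the filter on counts. Their comparison with WT is therefore not independent of the filter, because a high WT library is what let both genes be tested. Both met the criterion as lower in Isl1Cre/+ than in WT, as the muscle and erythroid markers did, and Dbh as higher in mutant than in Isl1Cre/+ libraries (edgeR adjusted p = 1 for each). The call of Slc6a2 was lost without WT replicate 2 (log2 fold change -2.55, against -4.33 with all libraries), without Isl1Cre/+ replicate 1 (-3.89) and with limma voom (-3.62). That of Dbh in the mutant was lost without mutant replicate 3 (1.85, against 2.95 with all libraries), without Isl1Cre/+ replicate 1 (2.37) or 3 (2.39), with all 3 genotypes in 1 fit (2.95) and with the replicate block (2.9). Its size rested on Isl1Cre/+ replicate 2, which held the only counts of that group, and without it the group was at 0, so that no fold change is given; the criterion was met in both comparisons. Dbh relative to WT was at -2.93 without WT replicate 2, against -4.21 with all libraries, and met the criterion in all 13 alternatives. Both genes are defining markers of sympathetic neurons, and the share of such cells in the dissected ganglia was not measured. For serotonin, Tph2, the neuronal synthesis enzyme, had 60 to 105 counts and the transporter gene Slc6a4 38 to 98. Maoa, which breaks monoamines down, was at 32.1 CPM per kb, above all 8 receptor genes.

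**Figure D4:**
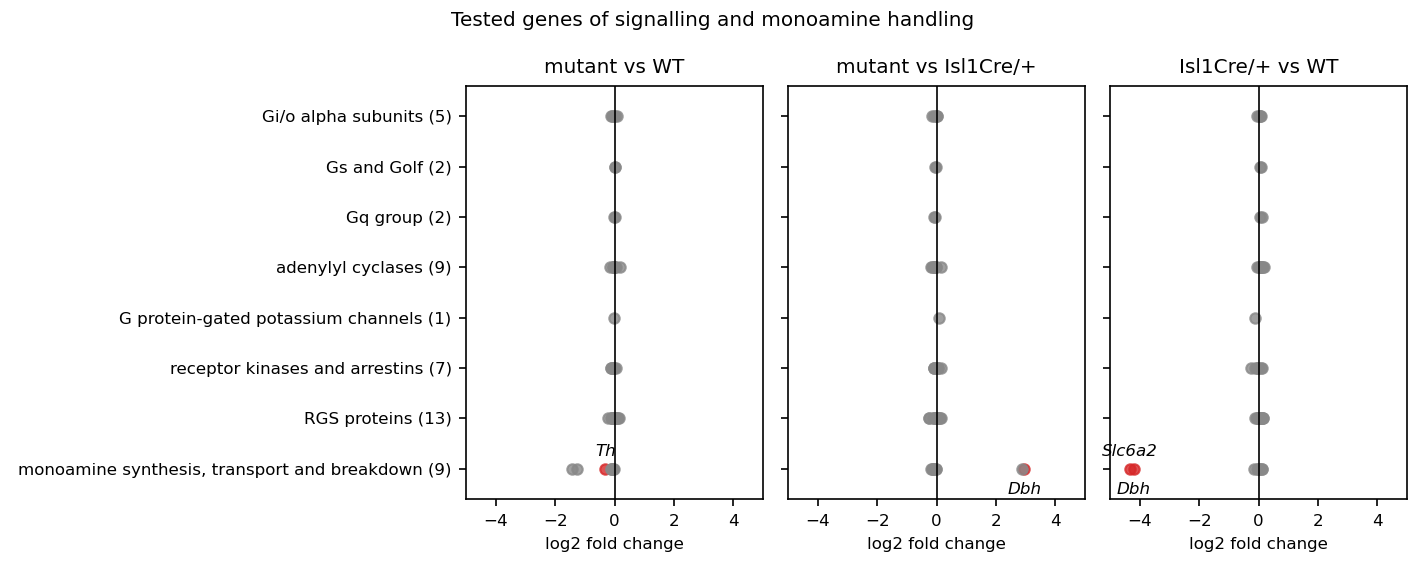
Log2 fold change of each tested gene of the signalling and monoamine lists (number of genes in parentheses) in the 3 comparisons of genotypes. Red points meet the criterion: Th between mutant and WT, Dbh between mutant and Isl1Cre/+, and Dbh and Slc6a2 between Isl1Cre/+ and WT.

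For each tested receptor gene, the 3 genes with the most alike pattern were found by Pearson's r of log2 CPM over the 9 libraries, which share their genotypes and their library preparation. With 13200 genes to choose from, high values are bound to occur, and they are given as a description. For Drd1 these were Sfxn1 (r = 0.972), Kit (0.96) and Clasp2 (0.958). For Htr1b they were Paqr9 (0.977), Pcdhb3 (0.974) and Stam (0.964), and for Htr1a Ints2 (0.964), Zfp639 (0.959) and Mindy3 (0.951). Adra2a went with Fndc3b (0.983), Tcf12 (0.973) and Wdr61 (0.969), and Adra2c with Riox2 (0.947), Abhd6 (0.941) and Ranbp1 (0.924). Htr1d went with Slc43a2 (0.962), Sgpp2 (0.952) and Cyb561 (0.951), and Htr3a with Esr1 (0.94), Cartpt (0.934) and Hoxd10 (0.915). Without the 2 libraries farthest from the median of Drd1, its r was 0.924 with Sfxn1, 0.808 with Kit and 0.769 with Clasp2.

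The promoter windows of 7 of the 8 receptor genes were at hand (RefSeq, GRCm38.p6, 250 bases before to 50 after each start), in 9 windows, and Htr3a had none. They were searched on both strands for TGACAG, the core hexamer bound by Meis proteins. It was found in 2 windows, shown with the hexamer in capitals.
Htr1d: gccaatcacaaaTGACAGaccaggagagca
Adra2c: tcaggccacacgTGACAGaacctctgtgaa
These lie at chr4:136423419-136423448 (+), with the hexamer 93 bases before the start, and at chr5:35278406-35278435 (+), 148 bases before the RefSeq start. The gene model used for the coordinates above starts further upstream for Adra2c, so that this stretch lies inside its single exon. The hexamer is held by 19.2% of all 32851 windows of that length, and a match is a description of letters only. Neither Htr1d nor Adra2c met the criterion in a comparison above.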

How the data were processed

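Poly(A) RNA from E18.5 DRG was made into CORALL libraries. The authors extracted unique molecular identifiers, aligned single-end reads of 84 bases to mm10 with STAR 2.7.10, removed duplicates with UMI-tools and deposited HTSeq 0.6 counts of uniquely mapped reads per gene. Annotation release and strand setting are not given in the sources used here. Columns of the authors' fold changes, p-values and related statistics were not used.

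A gene entered the tests if any of the 9 libraries held 100 or more of its counts (13200 genes). After TMM scaling, pairs of genotypes were fitted separately in edgeR 4.0.16 (R 4.3.3) by quasi-likelihood, two-sided, with Benjamini-Hochberg adjustment over every gene tested. The study's criterion asks for 1.2-fold or more together with p under 0.05 before adjustment. Standard errors are the log2 fold change over the root of the F statistic. The procedure was tested on simulated counts. Positions and exon lengths come from GENCODE M21 on GRCm38, with 54855 of 55247 identifiers identical in version.

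The 8 receptors, the lists and the rule for named genes (all 8, listed genes past the filter or meeting the criterion, and the 3 genes most alike per receptor) were chosen with earlier results of these data known. Maoa, Gnal, Rgs4, Tph2, Slc6a4 and Adrb3 were named after their values were seen. Some genes under the rule are not reported here. No sequence of a protein was used. Alternatives were edgeR with the size factors of DESeq2, scaling by library size alone, testing without a filter, DESeq2 1.42.0, limma voom 3.58.1, all genotypes in 1 fit, the replicate number as a block and each library left out. Added after seeing the data were the omission of WT replicate 1 with mutant replicate 2, and all alternatives for Th, Dbh and Slc6a2. Libraries with the same replicate number were not treated as pairs across genotypes in the main fits. Depth was 23854607 to 29103444 counts. Between pairs of libraries of a genotype, the variance was 12.6 to 129 times that of counting (chi-square per degree of freedom).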

Additional observations from a re-analysis of the deposited data

How the results depend on the processing

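Of 280 values of the 7 tested receptor genes under the alternatives, 255 kept their direction and their side of the criterion, 24 changed sign and 1 passed the criterion. The count of receptor genes meeting the criterion was 0 under every alternative in every comparison, except limma voom between mutant and Isl1Cre/+, where it was 1 (Drd1). Log2 fold changes between mutant and WT changed sign for Drd1 with limma voom (0.007) and with the replicate block (0.009), and, without WT replicate 1 and mutant replicate 2, for Htr1a (-0.123) and Adra2a (-0.152). Between Isl1Cre/+ and WT, Htr1d changed sign with all 3 genotypes in 1 fit (-0.005).

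With single libraries left out, the ranges between mutant and WT were -0.233 to 0.141 for Drd1, -0.190 to 0.272 for Htr1a, -0.013 to 0.273 for Htr1b, -0.131 to 0.005 for Htr1d and -0.146 to 0.265 for Adra2a. Between mutant and Isl1Cre/+ they were -0.275 to 0.149 for Adra2a, -0.095 to 0.083 for Htr1b, -0.149 to 0.084 for Htr3a and -0.160 to 0.006 for Adra2c. Between Isl1Cre/+ and WT they were -0.447 to 0.041 for Htr1a, -0.003 to 0.309 for Htr1b, -0.079 to 0.050 for Htr1d and -0.220 to 0.024 for Htr3a. The cause of these changes was not tested.

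Same-numbered libraries were not treated as pairs in the main fits (correlations of their deviations from the genotype means from -0.569 to 0.385). The sources used here name no litter, and these correlations cannot show whether same-numbered libraries shared a litter. Under the replicate block 0 of 7 receptor genes met the criterion in each comparison. Over all tested genes, the block gave 31, 177 and 236 genes meeting the criterion (mutant against WT, mutant against Isl1Cre/+, Isl1Cre/+ against WT) where the fit without it gave 42, 221 and 185. These totals rose to 408, 1028 and 845 with no filter and ranged from 40 to 182, 167 to 407 and 102 to 340 with libraries left out. Depth limits Drd2 most, at 15 to 23 counts a library.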
